A study of Mus musculus with 6 samples.

Results

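The 34 genes described here encode the enzymes of glycolysis together with the membrane carriers that bring glucose in and take lactate out. They were taken by symbol from a fixed list, in pathway order and by isoform, out of 56941 gene identifiers in the deposited count table. Of these, 33 passed the filter on low counts, and Hk3, a hexokinase isoform, had 2 to 7 counts per sample and was not tested. The list names the glucose transporters Slc2a1, Slc2a3 and Slc2a6, each enzyme from hexokinase to lactate dehydrogenase, the lactate carriers Slc16a1 and Slc16a3, and 2 kinds of regulator, the enzymes that set fructose 2,6-bisphosphate and the pyruvate dehydrogenase kinases.

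RNA-seq was performed on 6 samples labelled as CD8+ T cells from the spleens of B6 mice, in 2 groups of 3 that the labels call biological replicates. By the labels, naive CD8+ T cells were purified and then activated on plates coated with antibodies against CD3 and CD28, with rIL2 in the medium, for 3 days in both groups. At 24 h of activation the cultures received vehicle or 5 µM sphingosine-1-phosphate (S1P), a signalling lipid that acts through G protein-coupled receptors. Both groups were therefore activated cells, no resting sample was analysed, and the labels do not say whether the replicates came from separate mice, so the p-values measure the spread between these cultures.

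Glycolysis splits glucose into pyruvate in the cytosol and yields ATP and building blocks on the way. Resting T cells use little of it, and activated T cells raise glucose uptake and turn much of the pyruvate into lactate even when oxygen is present, a habit known as aerobic glycolysis. Several steps are served by more than 1 isoform, and the isoforms differ in the tissues that use them, in regulation and in affinity for substrate.

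Total counts ran from 13636095 to 17089831 in the vehicle samples and from 12048880 to 17384084 in the S1P samples. S1P replicate 2 stood apart: mitochondrially encoded genes took 7.80% of its counts against 4.10% to 4.93% in the other 5 samples, and its mean chi-square per gene was 31.2 and 18.4 against the other S1P samples, where those 2 differed by 5.98 and the vehicle samples by 3.81 to 3.97. The results are therefore also given without it where this mattered. The labelled cell type was checked on markers. Cd8a stood at 132 to 251 CPM (counts per 1000000 counts after TMM scaling) and was lower with S1P (log2 fold change -0.67, adjusted p = 0.000243). Cd8b1 was lower as well (-0.55, adjusted p = 0.00767 by edgeR). The summed CD8 T cell list ran from 2377 to 2708 CPM with vehicle and from 2242 to 2518 CPM with S1P. Of its 10 genes, 1 was called higher, Cd2, and 2 lower, Cd8a and Cd8b1. The list also holds genes of T cells in general, such as Cd3e, Cd2 and Cd28, so its sum does not measure CD8 T cells alone. Genes of other lymphocytes were present as well, and the study's methods leave the starting cells as either total splenocytes or purified naive T cells. Cd4 was at 201, 186 and 223 CPM with vehicle and 195, 254 and 206 CPM with S1P, where Cd8a was at 208, 251 and 207 and at 144, 132 and 142 CPM. These levels are not divided by length and so give no ratio of the transcripts. Purified CD8+ T cells should hold little Cd4, and the markers go against the label to that extent. The 8 B cell markers summed to 1082 to 1319 CPM with vehicle and 1132 to 1224 CPM with S1P, with 2 called lower by edgeR. DESeq2 called 2 B cell markers lower and 1 higher. Pax5 had all S1P samples above vehicle (log2 fold change 0.33, adjusted p = 0.0699 by edgeR). The 4 CD4 T cell markers summed to 229 to 272 and 252 to 319 CPM, with 2 called higher. Over all tested genes 12.7% were called higher and 10.4% lower, against 10% and 20% of the CD8 T cell list, 25% of the B cell list (lower) and 50% of the CD4 T cell list (higher). The 7 NK cell markers summed to 139 to 167 CPM with vehicle and to 94.6 to 102 CPM with S1P, the groups not overlapping, through Nkg7 and Eomes, which activated CD8+ T cells also express. Myeloid and erythroid markers were at or near 0, with S100a8 and S100a9 at 0 counts in every sample and list sums of at most 6.41 and 1.26 CPM. In bulk RNA, fewer cells of a type and less RNA per cell cannot be told apart, and the part of these lymphocyte markers in the results was not tested.

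Across the pathway the direction was mostly upward with S1P. Calls come from edgeR's quasi-likelihood test over all 13299 tested genes and needed both an adjusted p no higher than 0.05 and a change of 0.3 or more on the log2 scale, up or down. Of the 33 tested members, 21 were called higher, 2 were called lower (Eno3 and Bpgm) and 10 were not called. Without S1P replicate 2 the counts were 22 and 2. Over all tested genes, 12.7% were called higher and 10.4% lower. The median log2 fold change of the members was 0.48, against 0.01 over all tested genes. The 3 S1P samples all lay above the 3 vehicle samples for 21 members and all below them for 4, where the shares over all tested genes were 23% and 22.6%. Of the 23 called members, 22 had groups that did not overlap, the exception being Pfkfb4. Calls and overlap rest on the same samples, so this count is not independent of the calls. Taken as 1 sum, the members held 1.42%, 1.57% and 1.28% of all counts in the vehicle samples and 2.22%, 1.78% and 2.09% in the S1P samples. The means were 1.42% ± 0.145 and 2.03% ± 0.226 (SD, n = 3) without overlap, and the exact permutation test gave p = 0.1, two-sided, the smallest that 3 against 3 samples allow.

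**Figure D1:**
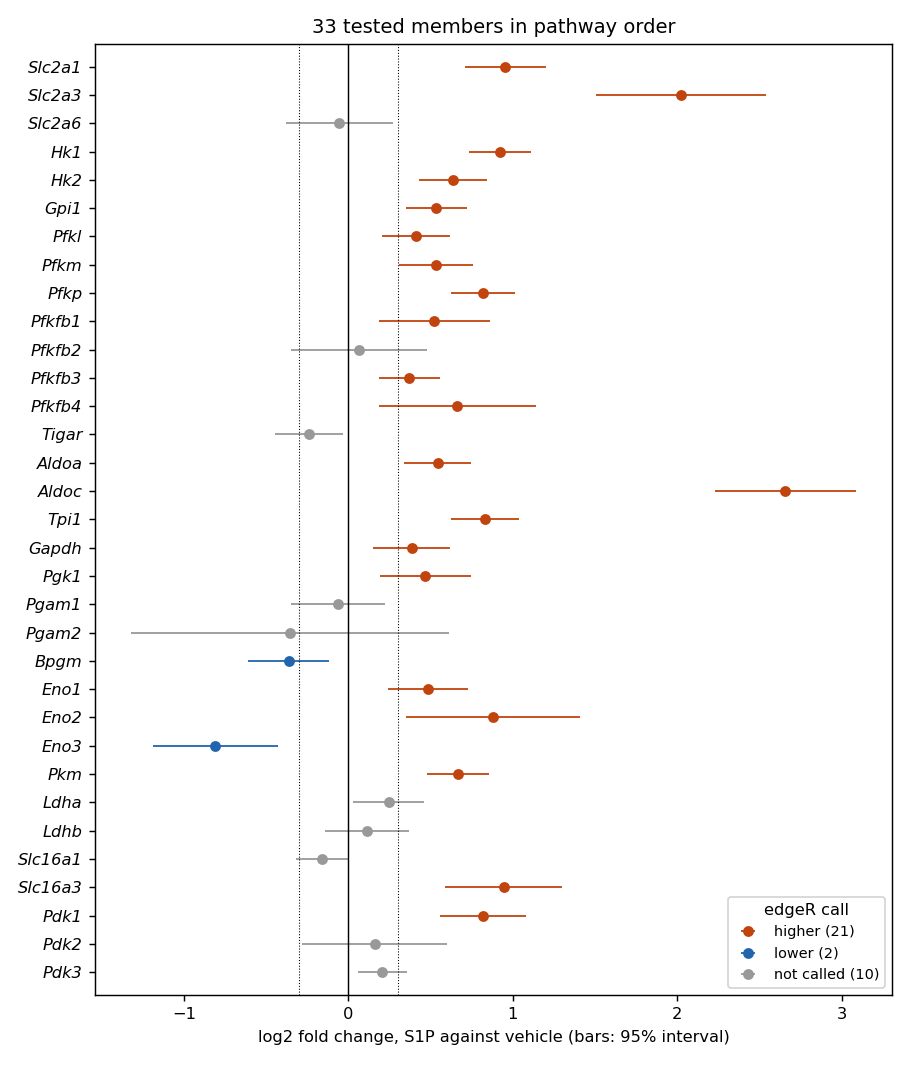
Log2 fold change of S1P against vehicle (x axis) for the 33 tested members, in pathway order from glucose transport at the top to the pyruvate dehydrogenase kinases at the bottom. Points are edgeR estimates, bars their 95% intervals and dotted lines the fold threshold of 0.3. The 21 members called higher include Aldoc at 2.66 and Slc2a3 at 2.02, and Eno3 and Bpgm are the 2 called lower.

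The stretches in front of the genes are shown for the 6 members with the largest rises that are in the RefSeq promoter table and for both that fell. The letters searched were ACGTG and GCGTG, the core that hypoxia-inducible factors bind, on either strand, so that CACGT and CACGC also count, and CACGTG, the E-box of MYC and MAX, which itself holds ACGTG on both strands. Windows were the 250 bases before each RefSeq start (table build GRCm38.p6), each printed window matched without mismatch to GRCm39, and 33 of 34 members were in the table. Most windows overlap exons annotated in GENCODE vM39, so only the stretch outside annotated exons is printed whole, and sites inside exons are cut to 30 bases. Each is given 5′ to 3′ on the gene's strand, with the searched letters in capitals.
Aldoc site, chr11:78213837-78213866, plus strand: ccacctctgaggGCGTGgccttaccctaga
Slc2a1 upstream stretch, chr4:118965692-118965907, plus strand: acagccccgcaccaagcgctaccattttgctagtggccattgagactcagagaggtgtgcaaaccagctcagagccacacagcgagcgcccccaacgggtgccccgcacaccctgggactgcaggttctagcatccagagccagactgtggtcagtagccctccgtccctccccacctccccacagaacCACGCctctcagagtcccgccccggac
Slc2a1 site, chr4:118965894-118965923, plus strand: gtcccgccccggACGTGctccccaggcccc
Slc16a3 site, chr11:120839860-120839889, plus strand: gcggtgACGTGcgcgggggACGTGccgcgc
Hk1 site, chr10:62176379-62176408, minus strand: ccgctctctttcCACGCccacttgtgtgct
Hk1 site, chr10:62176201-62176230, minus strand: ttggcactgtgccacCACGCGTGaccgcgc
Eno2 upstream stretch, chr6:124746637-124746825, minus strand: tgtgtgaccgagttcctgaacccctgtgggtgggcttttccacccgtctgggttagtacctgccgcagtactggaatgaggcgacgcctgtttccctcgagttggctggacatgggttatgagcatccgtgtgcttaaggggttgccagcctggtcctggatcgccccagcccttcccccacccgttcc
Tpi1 upstream stretch, chr6:124791274-124791371, minus strand: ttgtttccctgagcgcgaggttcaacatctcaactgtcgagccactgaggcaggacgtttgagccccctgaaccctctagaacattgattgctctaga
Eno3 site, chr11:70547860-70547889, plus strand: gagaagggggtaCACGCcccagggccccag
Bpgm upstream stretch, chr6:34453041-34453141, plus strand: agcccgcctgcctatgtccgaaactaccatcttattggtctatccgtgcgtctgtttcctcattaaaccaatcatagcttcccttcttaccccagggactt

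Of 52 windows of the members, 37 (71.2%) held at least 1 hypoxia core, and of the 35 windows of members called higher, 24 (68.6%) did. The share was 55.9% over 11906 windows of tested genes and 38.6% over all 32851 windows. Hk1 and Aldoc had 2 windows each, of which the one nearest the annotated canonical start was taken for printing. Aldoc had 1 core at 50 bases before the RefSeq start, Slc2a1 had 2 at 61 and 36 bases, Slc16a3 had 2 at 27 and 14 bases, and Hk1 had 3 at 196, 15 and 12 bases, while the other window of Hk1 held 0 and that of Aldoc 1. The windows of Eno2 and Tpi1 held none, and of the fallers Eno3 held 1 at 130 bases and Bpgm held none. The letters CACGTG were in 11.5% of the members' windows, in 5.71% of those of members called higher and in 8.42% of those of tested genes. Binding was not measured, and a match of letters is only that.

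The summed RNA of the glucose transporters had the largest ratio between the groups of any step. Glucose uptake and flux through the pathway were not measured in these samples. Slc2a3 (ENSMUSG00000003153, GRCm39 chr6:122704768-122778599, minus strand) encodes GLUT3, a transporter with high affinity for glucose. It stood at 168, 248 and 108 CPM with vehicle and 865, 613 and 649 CPM with S1P. Every S1P sample lay well above the highest vehicle sample, a 4.06-fold rise (log2 fold change 2.02, interval 1.51 to 2.54, adjusted p = 0.000154). Slc2a1 (ENSMUSG00000028645, chr4:118965908-118996365, plus strand), which encodes GLUT1, the main transporter of activated T cells, was at 137, 158 and 109 CPM with vehicle and 277, 257 and 247 CPM with S1P. It was 1.94-fold higher, again without overlap (log2 fold change 0.95, interval 0.71 to 1.20, adjusted p = 0.000166). Slc2a6, whose product GLUT6 sits on lysosomes, ranged from 7.04 to 10.1 CPM over the 6 samples and was not called (log2 fold change -0.06, interval -0.38 to 0.27).

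The make-up of the transport step also differed. Per kilobase of exon, the scale used for steps and isoform shares, the 3 transporters summed to 78.0, 102 and 56.0 CPM per kb with vehicle and to 285, 217 and 224 CPM per kb with S1P, 3.08-fold between the means. Slc2a3 held 54.5%, 61.7% and 48.7% of that sum with vehicle and 76.8%, 71.4% and 73.4% with S1P. The share of Slc2a1 was 39.5% ± 4.43 with vehicle and 24.5% ± 2.45 with S1P (SD, n = 3), with all S1P samples below vehicle although its own level rose.

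Hexokinase traps glucose in the cell as glucose 6-phosphate. Hk1 (ENSMUSG00000037012, chr10:62104621-62215687, minus strand), the widely used isoform, was at 243, 263 and 223 CPM with vehicle and 442, 509.7 and 430.3 CPM with S1P. Hk2 (ENSMUSG00000000628, chr6:82699740-82751469, minus strand), the inducible isoform, was at 193, 204 and 154 CPM with vehicle and 279, 290.2 and 287 CPM with S1P. Both rose in every S1P sample above every vehicle sample, Hk1 1.89-fold (log2 fold change 0.92, interval 0.73 to 1.11, adjusted p = 4.63e-05) and Hk2 1.55-fold (log2 fold change 0.63, interval 0.43 to 0.84, adjusted p = 0.000663). Hk1 carried 70.8% ± 1.56 of the tested hexokinase level with vehicle and 74.5% ± 1.51 with S1P (CPM per kb, n = 3), without overlap. Gpi1, glucose phosphate isomerase, was at 543, 616 and 510.1 CPM with vehicle and 845, 751 and 821 CPM with S1P, 1.45-fold higher (log2 fold change 0.53, interval 0.35 to 0.72, adjusted p = 0.00102).

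Phosphofructokinase commits sugar to glycolysis, and all 3 of its isoforms rose. The platelet-type isoform Pfkp (ENSMUSG00000021196, chr13:6629798-6698970, minus strand) was at 586, 668 and 522 CPM with vehicle and 1049, 1028.5 and 1050.0 CPM with S1P. The S1P samples were nearly alike and all above vehicle (log2 fold change 0.82, interval 0.62 to 1.01, adjusted p = 0.000109). The liver-type Pfkl was at 196, 211 and 168 CPM with vehicle and 275, 228 and 261 CPM with S1P, and the muscle-type Pfkm was at 20.1, 19.8 and 19.1 CPM with vehicle and 31.3, 24.4 and 29.1 CPM with S1P. Neither overlapped between the groups, with log2 fold changes of 0.41 (adjusted p = 0.00779) and 0.53 (adjusted p = 0.00312). Pfkp held 72.7% ± 0.635 of the step with vehicle and 77.8% ± 1.54 with S1P, and Pfkl held 24.7% ± 0.495 and 19.9% ± 1.32 (CPM per kb, SD, n = 3), both without overlap.

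Fructose 2,6-bisphosphate is the strongest activator of phosphofructokinase, and 5 members make or remove it. Pfkfb3, the form with the most kinase activity, was at 102, 109.9 and 86.5 CPM with vehicle and 125, 130.1 and 129.9 CPM with S1P, with a log2 fold change of 0.37 (interval 0.18 to 0.56, adjusted p = 0.00791) that fell under the fold threshold without vehicle replicate 3 (0.28, adjusted p = 0.0426). It held 55.4% ± 5.01 of the step's level with vehicle and 60.3% ± 1.75 with S1P, and these shares overlapped. Pfkfb1, best known from liver, was at 6.23, 5.35 and 7.01 CPM with vehicle and 9.96, 7.81 and 8.79 CPM with S1P. Its groups did not overlap and its log2 fold change was 0.52 (adjusted p = 0.0259), a call lost without S1P replicate 1 (0.42, adjusted p = 0.0855), S1P replicate 3 (0.52, adjusted p = 0.0682), vehicle replicate 1 (0.52, adjusted p = 0.0782) or vehicle replicate 2 (0.43, adjusted p = 0.0968). Pfkfb4 was at 3.63, 3.59 and 3.79 CPM with vehicle and 6.70, 3.77 and 6.75 CPM with S1P. S1P replicate 2 lay inside the vehicle range, the gene had 43 to 119 counts per sample, and the log2 fold change was 0.66 (interval 0.19 to 1.14, adjusted p = 0.0405). Without S1P replicate 1 it was 0.53 (adjusted p = 0.122), without S1P replicate 3 0.54 (adjusted p = 0.153), and without vehicle replicate 1, 2 or 3 it was 0.65, 0.64 and 0.68 (adjusted p = 0.112, 0.108 and 0.0993), so that S1P replicate 2 was the only sample whose removal kept this call. Pfkfb2 was not called (4.22 to 6.36 CPM, log2 fold change 0.07, interval -0.35 to 0.48). Tigar, a phosphatase that removes fructose 2,6-bisphosphate, ran from 28.5 to 32.0 CPM with vehicle and from 23.1 to 27.4 CPM with S1P. Its groups did not overlap, and its log2 fold change of -0.24 missed the threshold (adjusted p = 0.0765).

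Aldolase splits fructose 1,6-bisphosphate into trioses. Aldoa (ENSMUSG00000030695, chr7:126393822-126399923, minus strand) carried nearly the whole step and was at 900.1, 1041 and 851 CPM with vehicle and 1413, 1229 and 1426 CPM with S1P, 1.46-fold higher (log2 fold change 0.54, interval 0.34 to 0.75, adjusted p = 0.00153). Aldoc (ENSMUSG00000017390, chr11:78213619-78218889, plus strand), an isoform best known from brain, showed the largest fold change of all members. It was at 7.78, 10.9 and 5.14 CPM with vehicle and 58.4, 44.7 and 45.5 CPM with S1P. The lowest S1P sample was over the highest vehicle sample by a wide margin, and the rise was 6.31-fold, with an interval of 4.68 to 8.50 (adjusted p = 1.41e-05). It remained the minor isoform, at 0.453% ± 0.120 of aldolase with vehicle and 1.94% ± 0.247 with S1P (CPM per kb, SD, n = 3).

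The triose steps follow. Tpi1, triose phosphate isomerase (ENSMUSG00000023456, chr6:124787549-124791273, minus strand), was at 645, 751 and 581 CPM with vehicle and 1159.9, 1118 and 1235 CPM with S1P. It rose 1.78-fold without overlap (log2 fold change 0.83, interval 0.62 to 1.04, adjusted p = 0.000138). Gapdh, the dehydrogenase that yields NADH and a common reference gene in quantitative PCR, was at 2778, 3002 and 2528 CPM with vehicle and 4039, 3110.0 and 3691 CPM with S1P. S1P replicate 2 lay just above the highest vehicle sample, and the log2 fold change was 0.38 (interval 0.15 to 0.62, adjusted p = 0.0194). It was 0.30 without S1P replicate 1 (adjusted p = 0.0392, under the fold threshold), and the adjusted p passed 0.05 without S1P replicate 3 (0.36, adjusted p = 0.0714), vehicle replicate 1 (0.38, adjusted p = 0.0687) or vehicle replicate 3 (0.32, adjusted p = 0.101). Pgk1, phosphoglycerate kinase, the first step that makes ATP, was at 1342, 1469 and 1175 CPM with vehicle and 2095, 1469.5 and 1945 CPM with S1P. The lowest S1P sample and the highest vehicle sample were level at 1469.5 and 1469 CPM, and the log2 fold change was 0.47 (interval 0.19 to 0.74, adjusted p = 0.0169). The call was lost without S1P replicate 3 (0.42, adjusted p = 0.0778), vehicle replicate 1 (0.47, adjusted p = 0.0584) or vehicle replicate 3 (0.38, adjusted p = 0.0892).

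At phosphoglycerate mutase the main gene was not called higher. Pgam1, which held 94.5% ± 1.17 of the step with vehicle, was at 200.2, 233 and 188 CPM with vehicle and 229, 153 and 212 CPM with S1P. The groups overlapped, with S1P replicate 2 lowest of all 6, and the log2 fold change was -0.06 (interval -0.35 to 0.22, adjusted p = 0.750). Without S1P replicate 2 it was 0.09 (adjusted p = 0.411). Bpgm, which makes 2,3-bisphosphoglycerate and is best known from red cells, was called lower. It stood at 19.2, 16.7 and 19.0 CPM with vehicle and 12.6, 14.9 and 15.5 CPM with S1P. Its groups did not overlap and the log2 fold change was -0.36 (interval -0.61 to -0.12, adjusted p = 0.0315), a call lost without S1P replicate 1 (-0.27, adjusted p = 0.0976), vehicle replicate 1 (-0.33, adjusted p = 0.116) or vehicle replicate 3 (-0.34, adjusted p = 0.110). Pgam2, the muscle form, had 3 to 31 counts and was not called.

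Enolase was the only step with 1 isoform called lower and others called higher. Eno1 (ENSMUSG00000063524, chr4:150321073-150337027, plus strand), the form of most tissues, was at 1109, 1323 and 1017 CPM with vehicle and 1728, 1391 and 1695 CPM with S1P. All S1P samples lay above vehicle (log2 fold change 0.48, interval 0.24 to 0.72, adjusted p = 0.00808), and without vehicle replicate 3 the adjusted p was 0.0505 at a log2 fold change of 0.40. Eno3 (ENSMUSG00000060600, chr11:70546593-70553340, plus strand), the muscle enolase, was at 26.7, 41.4 and 33.9 CPM with vehicle and 20.9, 14.2 and 22.5 CPM with S1P. It was the larger of the 2 falls, to 0.571 of the vehicle level with an interval of 0.438 to 0.744 (adjusted p = 0.00571), and all S1P samples lay below vehicle. Eno2, the neuronal enolase, had only 18 to 52 counts, at 2.19, 1.32 and 1.67 CPM with vehicle and 2.93, 3.69 and 3.14 CPM with S1P. It was called higher (log2 fold change 0.88, interval 0.35 to 1.41, adjusted p = 0.0184), and lost the call without vehicle replicate 2 (0.73, adjusted p = 0.0737) or vehicle replicate 3 (0.85, adjusted p = 0.0687). As a share of the step per kb, Eno3 held 3.74% ± 0.599 with vehicle and 1.54% ± 0.198 with S1P and Eno1 96.1% ± 0.575 and 98.3% ± 0.164 (SD, n = 3), both without overlap.

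Pkm, pyruvate kinase, makes the second ATP of the pathway and its pyruvate. It was at 2210.0, 2444 and 2037 CPM with vehicle and 3483, 3608 and 3507 CPM with S1P, 1.58-fold higher with S1P samples close together (log2 fold change 0.66, interval 0.47 to 0.85, adjusted p = 0.000294). Counts per gene do not separate its splice forms M1 and M2.

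Ldha (ENSMUSG00000063229, chr7:46490899-46505061, plus strand), which turns pyruvate into lactate, held 99.4% ± 0.0862 of the lactate dehydrogenase level with vehicle and was at 1867, 2142 and 1727 CPM with vehicle and 2367, 2034 and 2394 CPM with S1P. Vehicle replicate 2 lay above S1P replicate 2, and the log2 fold change of 0.24 (interval 0.03 to 0.46) was not called (adjusted p = 0.0853). Without S1P replicate 2 it was 0.32 (adjusted p = 0.00790) and would be called. Ldhb, the heart-type form, ran from 10.1 to 12.2 CPM and was not called (log2 fold change 0.11, interval -0.15 to 0.37).

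Of the 2 lactate carriers, 1 rose. Slc16a3 (ENSMUSG00000025161, chr11:120838846-120851694, plus strand) encodes MCT4, a carrier adapted to lactate export, and was at 92.7, 116 and 67.4 CPM with vehicle and 199, 147 and 183 CPM with S1P. It rose 1.92-fold without overlap (log2 fold change 0.94, interval 0.59 to 1.30, adjusted p = 0.00155). Slc16a1 (ENSMUSG00000032902, chr3:104545811-104565780, plus strand), which encodes MCT1, was at 281, 292 and 286 CPM with vehicle and 269.9, 232 and 266 CPM with S1P. Its S1P samples all lay below vehicle, at a log2 fold change of -0.16 that was not called (adjusted p = 0.123). Without S1P replicate 2 it was -0.09 (adjusted p = 0.213). The sum of both was 81.8 ± 5.81 CPM per kb with vehicle and 93.2 ± 10.1 with S1P, with overlap. The share of Slc16a3 in it was 23.7% ± 4.66 and 40.1% ± 1.81 (SD, n = 3), with all S1P samples above vehicle.

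The pyruvate dehydrogenase kinases keep pyruvate out of the mitochondrial cycle by switching off its entry enzyme. Pdk1 (ENSMUSG00000006494, chr2:71703488-71734202, plus strand) was at 134, 167 and 111 CPM with vehicle and 252, 225 and 251 CPM with S1P, a rise of 1.77-fold without overlap (log2 fold change 0.82, interval 0.56 to 1.08, adjusted p = 0.000603). Pdk3 was at 81.2, 86.9 and 76.7 CPM with vehicle and 93.9, 94.6 and 93.5 CPM with S1P. These groups did not overlap either, and the log2 fold change of 0.20 passed on adjusted p (0.0431) but not on size, which makes it the only member of the 24 at an adjusted p of 0.05 or less that was not called. Pdk2 was not called (3.06 to 4.39 CPM, log2 fold change 0.16, interval -0.28 to 0.60). Per kilobase, Pdk1 held 42.8% ± 3.50 of the 3 kinases with vehicle and 53.6% ± 1.64 with S1P. On this scale the leading isoform changed from Pdk3 to Pdk1. In CPM, not divided by length, Pdk1 was above Pdk3 in every sample of both groups.

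**Figure D2:**
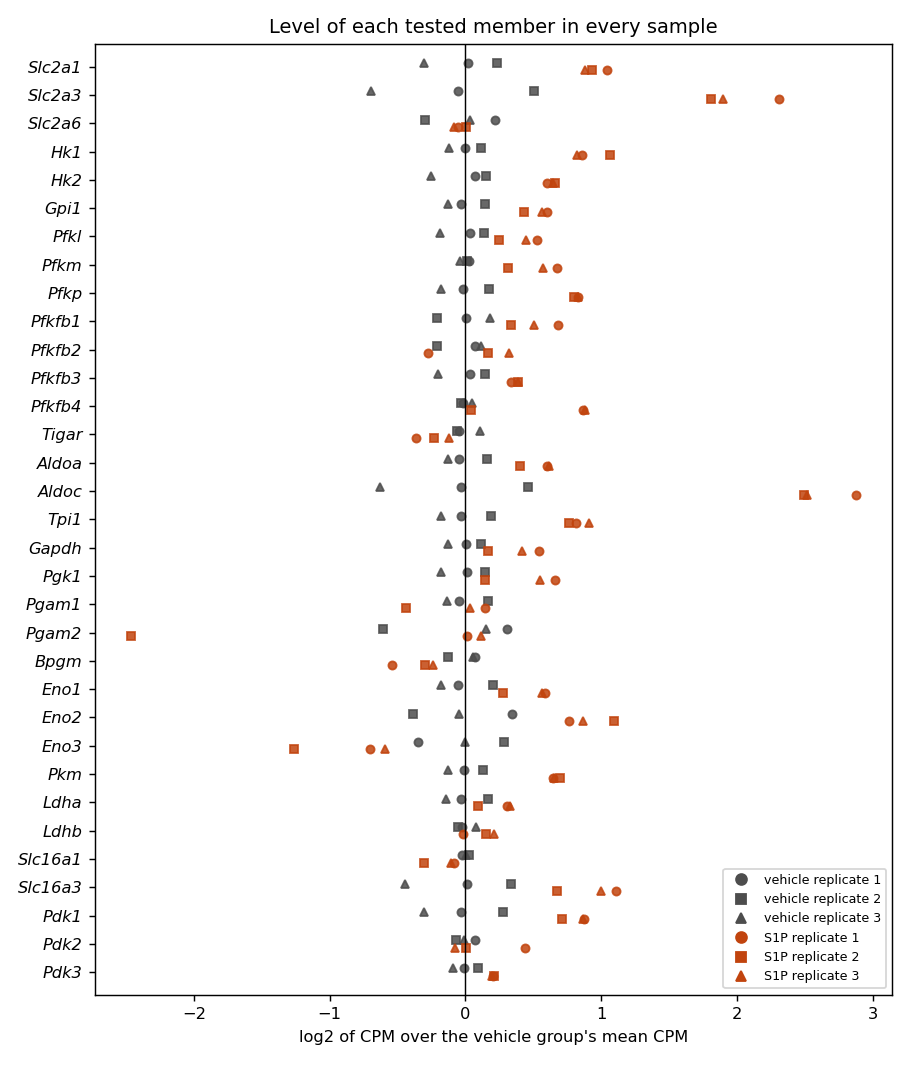
Level of each tested member in each of the 6 samples, as log2 of its CPM over the mean of the vehicle samples (x axis). Grey marks are vehicle and orange marks S1P, with circles, squares and triangles for replicates 1, 2 and 3. For the 21 members called higher, the grey square lies farthest right of the grey marks in 17 and the grey triangle farthest left in 18.

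Summed by step and per kilobase, levels in the vehicle samples differed widely along the pathway, with the fructose 2,6-bisphosphate step lowest at 31.7 ± 0.965 CPM per kb (SD, n = 3). Glyceraldehyde phosphate dehydrogenase was highest at 1950 ± 167 CPM per kb (SD, n = 3), then lactate dehydrogenase at 1211 ± 133 and pyruvate kinase at 911 ± 83.5. Lactate transport, hexokinase and glucose transport were at 81.8 ± 5.81, 80.5 ± 7.96 and 78.5 ± 22.9 CPM per kb and did not differ beyond their spread. With S1P these 3 separated to 93.2 ± 10.1, 144 ± 10.5 and 242 ± 37.4 CPM per kb. Of the 15 steps, 12 had all S1P samples above all vehicle samples, 0 had them below, and 3 overlapped, namely phosphoglycerate mutase, lactate dehydrogenase and lactate transport. Over all tested genes taken singly, the shares were 23% above and 22.6% below. The fructose 2,6-bisphosphate sum adds the Pfkfb genes to Tigar, whose product removes this sugar and whose S1P samples all lay below vehicle. That sum is therefore not a measure of 1 activity. The ratios between the means ran from 0.946 for phosphoglycerate mutase to 3.08 for glucose transport, with hexokinase at 1.79 and triose phosphate isomerase at 1.78. For each of those 12 steps the exact permutation test gave p = 0.1, two-sided, the smallest possible, and 0.125 after adjustment over 15 steps, so no single step could pass on its samples alone.

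**Figure D3:**
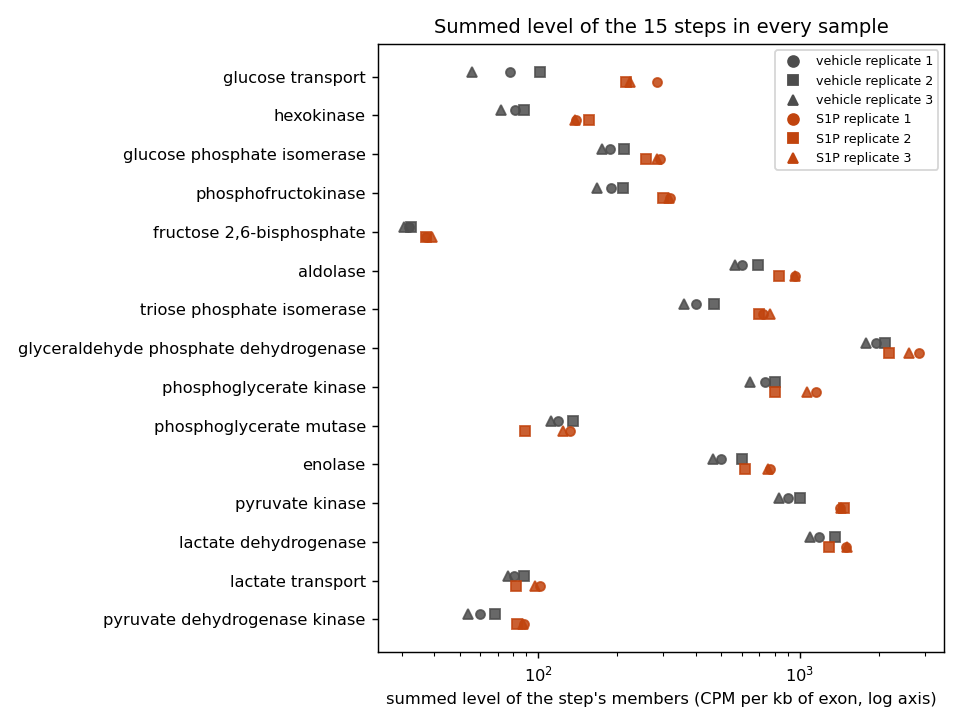
Summed level of the members of each of the 15 steps (CPM per kb of exon, log axis) in each sample, grey for vehicle and orange for S1P, with the marker giving the replicate. The groups are farthest apart at glucose transport and overlap at phosphoglycerate mutase, lactate dehydrogenase and lactate transport.

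The balance within the summed counts of the members, not divided by length, differed too. Ldha made up 13.5% ± 0.145 of the members' counts with vehicle and 11.1% ± 0.319 with S1P, and Gapdh 19.7% ± 0.464 and 17.6% ± 1.04 (SD, n = 3), both with all S1P samples below vehicle. Tpi1 made up 4.66% ± 0.108 and 5.73% ± 0.331 and Pkm 15.8% ± 0.248 and 17.3% ± 1.65, both with all S1P samples above. Of 28 isoform shares in 10 steps, 7 lay above vehicle in all S1P samples, 9 below and 12 overlapped, where the shares of 1 step add to 100% and are not independent. The smallest exact p was 0.1, or 0.175 after adjustment over the 28.

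**Figure D4:**
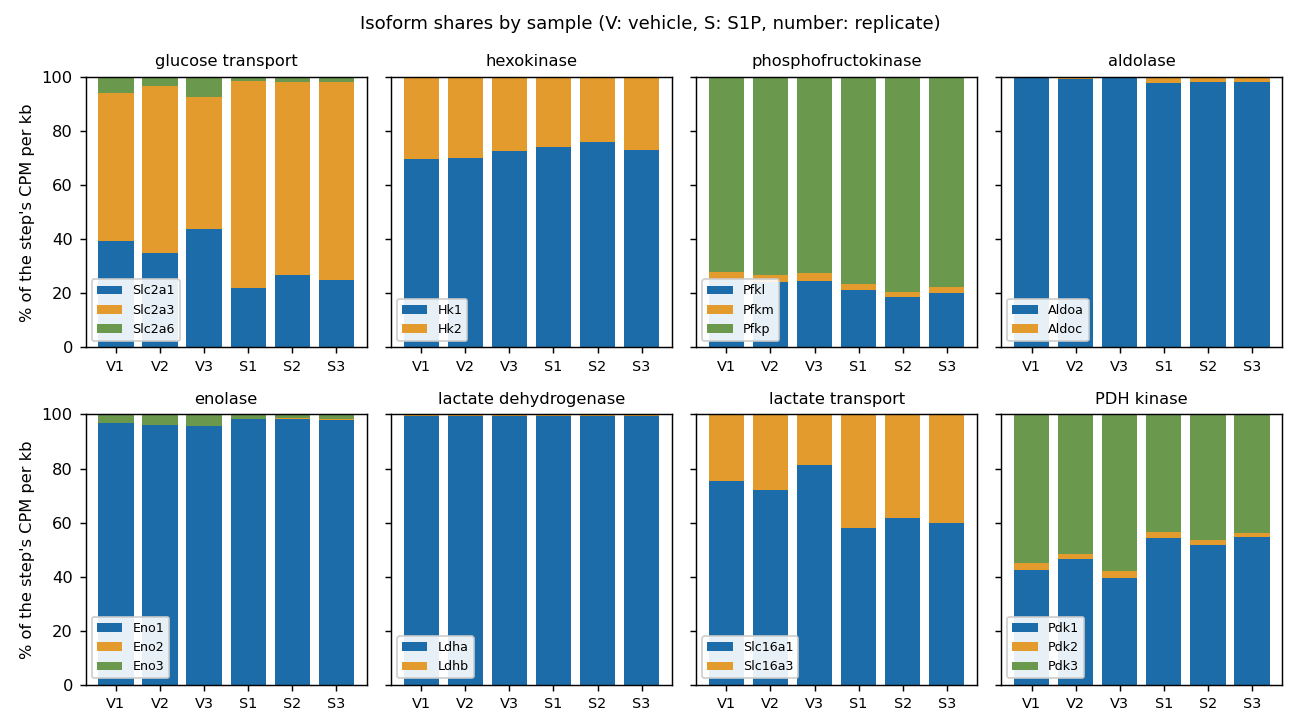
Share of each tested isoform in the level of its step (percent of CPM per kb, stacked to 100) in 3 vehicle (V) and 3 S1P (S) samples, for 8 of the 10 steps with more than 1 tested isoform. Slc2a3, Slc16a3 and Pdk1 take a larger share in each S1P sample than in any vehicle sample, and Eno3 a smaller one.

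The vehicle cultures differed in the level of many members without S1P. Of the 21 members called higher, vehicle replicate 2 was the highest of the 3 vehicle samples for 17 and vehicle replicate 3 the lowest for 18, and 17 had both. Both held for 20 (60.6%) of all 33 tested members and for 17.9% of all tested genes, and vehicle replicate 2 was the lowest for 10 of the 33. Slc2a3 spanned 108 to 248 CPM among vehicle samples and Aldoc 5.14 to 10.9 CPM, so the members with the largest rises also had a wide spread without S1P. Relative to the vehicle mean, the median log2 level of these 21 was 0.00 in vehicle replicate 1, 0.15 in replicate 2 and -0.18 in replicate 3, against 0.68, 0.66 and 0.65 in the S1P samples. Over all 33 tested members the medians were -0.01, 0.14 and -0.13 in vehicle replicates 1, 2 and 3. In S1P replicates 1, 2 and 3 they were 0.60, 0.27 and 0.55, so S1P replicate 2 lay lower there. Vehicle replicate 2 had the lowest B cell marker sum of the vehicle samples (1082 CPM, against 1319 and 1318). It had the highest sum of the CD8 T cell list, which also holds general T cell genes (2708 CPM, against 2377 and 2470). Replicates 1 and 3 hardly differed in the B cell sum. The part of these markers in the pattern was not tested. Leaving out vehicle replicate 1, 2 or 3 lowered the count called higher from 21 to 17, 18 and 15, with medians of 0.47, 0.53 and 0.40, while over all tested genes it went from 1687 to 1263, 1322 and 1158. Among the S1P samples, replicate 2 was the lowest for 15 of the 21 and the highest for 5, namely Hk1, Hk2, Pfkfb3, Eno2 and Pkm.

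How far each gene's reads are its own limits these values. In GENCODE vM39, part of the exon sequence of many glycolytic genes recurs in processed pseudogenes or lies under another gene. By shared stretches of 31 bases this was 86.0% for Aldoa, 85.8% for Gapdh, 74.0% for Pkm, 68.3% for Pgk1, 68.1% for Eno1 and 67.4% for Ldha. Eno1b, a retrocopy of Eno1 that was picked out here after its values were seen, held 1473 to 4364 counts per sample and had a log2 fold change of 0.25 (adjusted p = 0.343), so reads of Eno1 may be split between them. Of the exons of Slc16a3, 52.4% lie opposite Csnk1d, and those of Pgam2 lie 100% opposite Dbnl. The libraries keep the strand, and the strand and multi-mapping settings of the counting are not given in the sources used here, so these counts are uncertain to that extent. Of the 21 members called higher, 11 share under 10% of their stretches, among them Slc2a3 and Aldoc with 0% and Hk2 with 0.232%. The median log2 fold change was 0.82 for those 11 and 0.54 for the other 10.

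The genes around the pathway were taken from 6 lists. Of these 97 genes, 73 were tested, 9 were called higher and 12 lower, with a median log2 fold change of -0.06. These are 12.3% and 16.4%, against 12.7% and 10.4% over all tested genes. All S1P samples lay above vehicle for 15 of the 73 and below for 30, where the shares over all tested genes were 23% and 22.6%. Without S1P replicate 2, 12 were called higher and 10 lower. Among 7 other tested sugar and lactate transporters and their partners, 1 was called higher, Bsg, the chaperone that brings MCT1 and MCT4 to the membrane (197 ± 18.4 to 316 ± 13.3 CPM, SD, n = 3, log2 fold change 0.68, adjusted p = 0.000137). Among 14 other glycolytic and gluconeogenic enzymes, 1 was higher, Pck2, the mitochondrial phosphoenolpyruvate carboxykinase (0.80, adjusted p = 0.000120), and 1 lower, Gpd1l, a glycerol 3-phosphate dehydrogenase (-0.40, adjusted p = 0.00560).

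Of 11 tested genes by which pyruvate enters mitochondrial metabolism, 1 was called higher and 2 lower (9.09% and 18.2%, against 12.7% and 10.4% over all tested genes). Pcx, pyruvate carboxylase, was higher (log2 fold change 1.03, adjusted p = 0.000273). Mpc2, a subunit of the mitochondrial pyruvate carrier, and Dlat, a core subunit of pyruvate dehydrogenase, were lower (-0.38 and -0.34, adjusted p = 0.0296 and 0.00289). The call on Mpc2 was lost without S1P replicate 1 (-0.38, adjusted p = 0.05001), S1P replicate 2 (-0.30, adjusted p = 0.0529), vehicle replicate 2 (-0.34, adjusted p = 0.104) or vehicle replicate 3 (-0.35, adjusted p = 0.107). Of 17 genes of the TCA cycle, 0 were called higher and 6 (35.3%) lower, 16 had a negative log2 fold change and 13 had all S1P samples below vehicle. Over all tested genes, 10.4% were called lower and 22.6% had all S1P samples below vehicle. The falls were largest in Sdhd (-0.44, adjusted p = 0.00470), Ogdh (-0.43, adjusted p = 0.000984) and Sdhb (-0.42, adjusted p = 0.00269), which encode subunits of succinate and 2-oxoglutarate dehydrogenase. In edgeR 0 were higher and 10 lower at an unadjusted p under 0.05, and DESeq2 and limma-voom each called 0 higher and 6 lower.

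The pentose phosphate branch leaves glycolysis at glucose 6-phosphate and supplies NADPH and ribose. Of 8 tested genes, 0 were called higher and 1 (12.5%, against 10.4% over all tested genes) lower by edgeR, Pgls, 6-phosphogluconolactonase (log2 fold change -0.34, adjusted p = 0.0290). At an unadjusted p under 0.05, 0 were higher and 3 lower in edgeR, and DESeq2 and limma-voom each called 0 higher and 1 lower. The call on Pgls was lost without S1P replicate 2 (-0.27, adjusted p = 0.0529), S1P replicate 3 (-0.37, adjusted p = 0.0640), vehicle replicate 1 (-0.39, adjusted p = 0.0513), vehicle replicate 2 (-0.35, adjusted p = 0.0717) or vehicle replicate 3 (-0.30, adjusted p = 0.121). The list's median log2 fold change was -0.09, and 7 of the 8 genes had a negative value. All S1P samples lay below vehicle for 6 and above for 0, where the shares over all tested genes were 22.6% and 23%.

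Among 16 tested transcription factors and regulators with a known part in glycolytic gene expression, 6 (37.5%) were called higher and 2 (12.5%) lower, against 12.7% and 10.4% over all tested genes. Hif1a, the oxygen-regulated factor of this pathway, was at 522, 499 and 497 CPM with vehicle and 647, 698 and 600 CPM with S1P. The rise was small and without overlap (log2 fold change 0.36, adjusted p = 0.00474). The related Epas1 and Hif3a were at most at 5.80 and 8.43 CPM and rose by log2 fold changes of 1.14 (adjusted p = 0.00695) and 1.27 (adjusted p = 0.000663). Myc was at 349, 329 and 340 CPM with vehicle and 387, 368 and 369 CPM with S1P, and its log2 fold change of 0.14 was not called (adjusted p = 0.120). Mxd1, a MAX partner that competes with MYC, was higher (0.84, adjusted p = 0.000201). Txnip, an inhibitor of glucose uptake that is itself induced by sugar phosphates, was at 114, 116 and 111 CPM with vehicle and 202, 168 and 170 CPM with S1P (log2 fold change 0.67, adjusted p = 0.000201). Esrra and Mlx were called lower (-0.37 and -0.32, adjusted p = 0.0361 and 0.0112). The call on Esrra was lost in 7 of 14 alternatives, without S1P replicate 1 or 3 (-0.31 and -0.39, adjusted p = 0.0973 and 0.0662) and without vehicle replicate 1, 2 or 3 (-0.40, -0.39 and -0.31, adjusted p = 0.0737, 0.0669 and 0.140) among them, and that on Mlx without vehicle replicate 1 (-0.30, adjusted p = 0.0562) and, on size alone, with upper-quartile factors (-0.30, adjusted p = 0.0163).

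**Figure D5:**
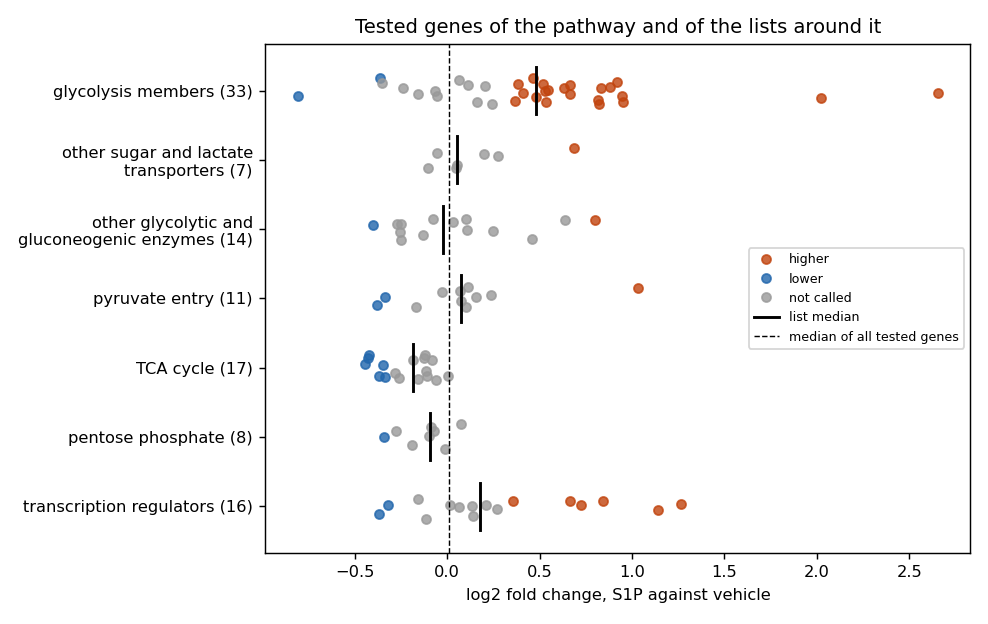
Log2 fold change of each tested gene (x axis) in the glycolysis members and in the 6 lists around the pathway, with the number tested in brackets, coloured by call. Solid bars are list medians and the dashed line the median of all tested genes; the members' median is 0.48, that of the TCA cycle -0.18 and that of the pentose phosphate genes -0.09.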

How the data were processed

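Polyadenylated RNA of 6 samples was sequenced from strand-specific libraries, 3 treated with vehicle and 3 with S1P. The authors' processing notes name Trim Galore, STAR, featureCounts, DESeq2 and the build GRCm39. The deposited table holds whole-number counts per gene, without normalization, and strand and multi-mapping settings are not given in the sources used here. Of 56941 identifiers, 56323 had a symbol in GENCODE vM39, and 39 tested genes had none. Total counts per sample were 12048880 to 17384084, which makes counting error matter mainly for the 8 tested members with under 100 counts in some sample.

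Under R 4.3.3 with edgeR 4.0.16, counts passed filterByExpr, were scaled by TMM factors and entered the quasi-likelihood test with treatment alone in the model; p-values of the 13299 tested genes were adjusted by Benjamini-Hochberg. The call thresholds, 0.05 for the adjusted p and 0.3 for the size of the change in log2, follow the study's methods. CPM are per 1000000 TMM-scaled counts, and CPM per kb divides by the exon length of the canonical transcript. Steps and shares were compared with exact permutation tests over samples. Intervals are 95% intervals of the edgeR fit.

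Alternatives were DESeq2 1.42.0, limma-voom (limma 3.58.1), other scalings, filters and thresholds, a replicate block, each sample left out in turn and, chosen after seeing the data, the length of all annotated exons. The members and lists were chosen with earlier results of these data known. Values per sample are given for called members and those with most of their step's level, and of other lists the 3 largest called rises and falls plus Hif1a, Myc and Txnip. A comparison of protein sequences, planned at first, was not made. Promoter sequences come from RefSeq.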

Additional observations from a re-analysis of the deposited data

How the results depend on the processing

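The 21 members called higher numbered 20 to 21 with DESeq2, limma-voom, RLE, upper-quartile or no scaling factors, another filter or none, and the count lower stayed at 2. Of the 21, 14 were called in each of the 14 alternative fits, as was 1 of the 2 lower, Eno3, and 0 of the 23 called members changed sign. Leaving out 1 sample gave 15 to 22 higher and 1 to 2 lower, and the losses are named beside each gene. Pfkfb4 was also lost with limma-voom (adjusted p = 0.0551) and with total counts only (adjusted p = 0.0573), and Esrra with DESeq2 (adjusted p = 0.0757) and with no filter (adjusted p = 0.0641). Without S1P replicate 2 all 23 calls remained and Ldha was added. At a log2 fold change of at least 1, 2 members were called higher and 0 lower, and of the genes around the pathway 3 higher and 0 lower. The labels do not say whether the replicate numbers pair the samples. Deviations of same-numbered samples correlated at 0.12, -0.006 and 0.048, and those of differently numbered samples at -0.1 to 0.05. Correlations over so few samples cannot decide whether the samples were paired. The fit with a replicate block called 21 members higher and 2 lower, all 23 of them shared with the fit without it. Of members not called, the sign of the log2 fold change turned with 1 sample left out, over which it ranged from -0.183 (vehicle replicate 2) to 0.069 (vehicle replicate 1) for Slc2a6, -0.074 (S1P replicate 3) to 0.238 (S1P replicate 1) for Pfkfb2, -0.182 (S1P replicate 1) to 0.093 (S1P replicate 2) for Pgam1, -0.634 (S1P replicate 1) to 0.038 (S1P replicate 2) for Pgam2 and -0.041 (S1P replicate 1) to 0.253 (S1P replicate 3) for Pdk2. The cause was not tested. The median log2 fold change over all genes moved from 0.01 to 0.16 with no filter, where 34414 genes were tested, and stayed within -0.01 to 0.04 in the other fits on all samples. The numbers of steps (12) and of shares (16) without overlap stayed within 1.5 times in every alternative run for them. These are counts and do not show that the same steps and shares stayed without overlap.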

Other observations

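Several isoforms best known from other tissues had few or no counts in these cells, unlike Eno3 or Aldoc. The liver and pancreas transporter Slc2a2 had 1 to 6 counts per sample and the insulin-responsive Slc2a4 had 0 to 1. The liver form Pklr had 0 to 2 counts, and the testis forms Pgk2 and Ldhc had 0 and 0 to 1. Of the enzymes of gluconeogenesis, Pck1 and Fbp1 were at 0 to 1 counts and Fbp2 and G6pc1 were at 0 in each of the 6 samples. Pck2 stood out from its cytosolic counterpart Pck1, at 547 to 1330 counts.

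Of the other lists' genes that were not called, Adpgk, a hexokinase that spends ADP in place of ATP, had all S1P samples below vehicle and stood at -0.27 in log2 (adjusted p = 0.0194 by edgeR), short of the fold threshold. Minpp1, a phosphatase that can also remove the 3-phosphate of 2,3-bisphosphoglycerate, was likewise at -0.25 (adjusted p = 0.0328). Emb, the partner protein of lactate carriers related to Bsg, did not pass the test at 0.05 (adjusted p = 0.703), where Bsg was called higher. The difference between Emb and Bsg was not tested. These genes were picked out after their values were seen.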
